A study of Mus musculus with 6 samples.

Results

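Voltage-gated calcium channels are built around a pore-forming α1 subunit, and in the high-voltage-activated channels this pore is joined by auxiliary proteins of a pair of families. The α2δ subunits are glycosylated proteins anchored on the outer face of the membrane that raise the number of channels at the cell surface and at presynaptic terminals. The β subunits sit in the cytoplasm, bind the loop between the first and second domains of α1, and set surface expression and gating. In dorsal root ganglia (DRG), which hold the cell bodies of somatosensory neurons, the α2δ subunit encoded by Cacna2d1 is known to accumulate after nerve injury. It is a target of the analgesics gabapentin and pregabalin.

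The genes described here are the 8 auxiliary subunit genes Cacna2d1 to Cacna2d4 and Cacnb1 to Cacnb4, taken by symbol from the 48401 genes listed for each library. All 8 were present. Bulk RNA was sequenced from L4/5 DRG of male C57BL/6J mice, 8 weeks old, that had been injected intrathecally with small interfering RNA. The siCLAP group (3 libraries) received siRNA named for the long intergenic noncoding RNA CLAP, and the siNC group (3 libraries) received siNC, taken as the control. The dose, the interval between injection and tissue collection and the number of mice behind a library are not stated in the labels, so p-values measure the spread between these libraries, which may be technical. No gene row is named CLAP, and the knockdown itself was not analysed here.

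Total expected counts were 25982046 to 39239131 in siCLAP libraries and 21386768 to 46317735 in siNC libraries. Sensory neuron markers were abundant in all 6 libraries, with a summed level over 10 markers of 10882 to 11416 TPM in siCLAP (transcript abundance per gene length, scaled to the same total in each library) and 10532 to 10905 TPM in siNC. Of these 10 markers 1 rose in siCLAP, the proprioceptor marker Pvalb, and 2 fell, the nociceptor genes Scn10a and Mrgprd (adjusted p = 0.0215, 0.0363 and 0.0397 in edgeR's quasi-likelihood test over all genes). The other 7 did not pass, among them the nociceptor markers Calca (log2 fold change 0.07) and Trpv1 (−0.07), and 7 of the 10 estimates were positive (median 0.09). Of 7 skeletal muscle markers, 5 averaged under 1 TPM. A set of 4 leptomeningeal markers (membranes around the cord and roots) summed to 6.19 to 16.5 TPM in siCLAP and 23.3 to 100.4 TPM in siNC. Of the 3 leptomeningeal markers tested 0 passed edgeR's test, and all 3 estimates were negative (median −1.78). The 10 nerve injury genes summed to 610.8 to 652.7 TPM in siCLAP and 570.1 to 608.1 TPM in siNC. Of the 9 nerve injury genes tested 1 rose, the transcription factor gene Atf3 (log2 fold change 0.97, adjusted p = 0.0409 in edgeR's test), and 8 of the 9 estimates were positive (median 0.36). Of 5 Schwann cell markers 1 fell, Egr2 (−0.76, adjusted p = 0.0389 in edgeR's test), all 5 estimates were negative, and the summed levels overlapped at 3209 to 3514 TPM in siCLAP and 3221 to 4283 TPM in siNC. Over all 19141 genes tested, 0.0731% rose and 0.219% fell in edgeR's test, and 9473 estimates were positive and 9668 negative. The marker calls depended on the test and libraries. The alternative test limma on log2(TPM + 0.5) called 0 of all genes, and so did edgeR's test without siCLAP-1. In tissue RNA of this kind, fewer cells of a type and less RNA per cell cannot be told apart.

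The 4 α2δ genes differ at a site that matters for drug binding, and this is shown first because the levels of Cacna2d1 and Cacna2d2 are summed below by it. Each line gives 75 bases of coding sequence, 5′ to 3′ on the gene's own strand, from GENCODE M21 transcripts. The first capitals are the 3 codons aligned with the arginine triplet known from α2δ biochemistry to be needed for gabapentin binding. The last capitals are the 5 codons of the metal-ion-dependent adhesion site of the von Willebrand factor A domain, which α2δ proteins need to promote the trafficking of channels.
Cacna2d1: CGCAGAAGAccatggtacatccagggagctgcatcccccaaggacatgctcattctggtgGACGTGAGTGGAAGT
Cacna2d2: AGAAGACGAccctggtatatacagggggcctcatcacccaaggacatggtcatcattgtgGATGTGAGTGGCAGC
Cacna2d3: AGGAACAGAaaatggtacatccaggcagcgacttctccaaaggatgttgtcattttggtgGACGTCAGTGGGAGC
Cacna2d4: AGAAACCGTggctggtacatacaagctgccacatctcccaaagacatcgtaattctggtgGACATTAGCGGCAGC
All 3 leading codons encode arginine in Cacna2d1 and Cacna2d2, whereas Cacna2d3 and Cacna2d4 hold 2 arginine codons of 3. The adhesion-site codons begin the same distance downstream in all 4 genes. Identity over the whole stretch followed the arginine codons only in part. Cacna2d1 and Cacna2d2 shared 58 of the 75 bases, the most of any pair. Cacna2d3 and Cacna2d4 shared 53, within the 50 to 55 shared by pairs taken across these. On build GRCm38 the stretches lie in exons 8 to 10 of Cacna2d1 (chromosome 5, 16264314 to 16267385, plus strand) and exons 8 to 10 of Cacna2d2 (chromosome 9, 107512347 to 107513242, plus strand), introns included in these spans. They lie in exons 7 to 8 of Cacna2d3 (chromosome 14, 29346971 to 29347135, minus strand) and exons 7 to 8 of Cacna2d4 (chromosome 6, 119267854 to 119268256, plus strand). The libraries give 1 value per gene, so use of the exons was not measured.

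Cacnb3 was the most abundant auxiliary subunit transcript in the ganglion and Cacna2d1 the second, and this held in all 6 libraries. Over the 6 libraries mean levels were 325.8 TPM for Cacnb3, 106.4 TPM for Cacna2d1, 58.4 TPM for Cacnb1, 47.0 TPM for Cacna2d3, 35.8 TPM for Cacnb4, 31.9 TPM for Cacna2d2, 4.45 TPM for Cacnb2 and 0.0516 TPM for Cacna2d4. Cacnb3 exceeded 97.8% of the 19141 genes with a mean of at least 1 TPM, and Cacna2d1 exceeded 90.8%. Neighbours in this order were separated by more than their spread over the libraries except Cacnb4 and Cacna2d2, whose ranges overlapped and of which Cacnb4 was higher in 5 of 6 libraries. The order rests on the gene lengths behind the deposited TPM. When expected counts were instead divided by the summed exon length of GENCODE M21, Cacnb4 moved above Cacna2d3 to the fourth position in all 6 libraries, and Cacna2d2 and Cacna2d3 shared the fifth and sixth in an order that differed between libraries. The other 5 genes kept their positions.

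**Figure D1:**
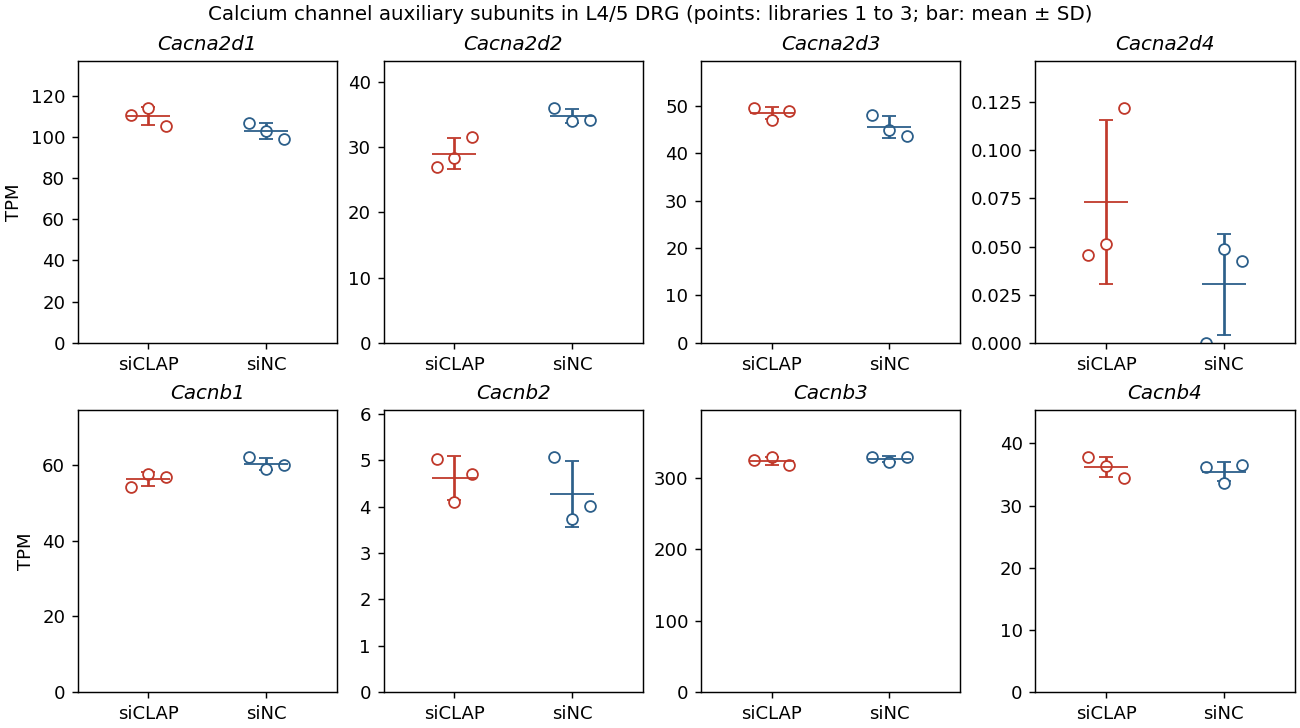
Level of each auxiliary subunit gene in TPM (vertical axes, each from 0), with siCLAP libraries left and siNC libraries right in every panel; open points are libraries 1 to 3, horizontal bars the mean and whiskers the SD. The groups do not overlap for Cacna2d2 (26.98 to 31.57 TPM in siCLAP, 34.06 to 35.98 TPM in siNC) and for Cacnb1, and they overlap in the other 6 panels. Over all genes tested, 21.5% did not overlap in normalised CPM, and the rate in TPM was not taken.

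Among the 7 members with a mean of at least 1 TPM, 0 passed the comparison of siCLAP with siNC (edgeR's quasi-likelihood test on rounded expected counts, Benjamini-Hochberg adjusted over 19141 genes, threshold 0.05), against 0.293% of all genes tested (0.0731% higher and 0.219% lower in siCLAP). An unadjusted p under 0.05 was reached by 2 of the 7, against 17.0% of all genes. DESeq2 called 1 of the 7, Cacna2d2, against 3.19% of all genes, and limma on log2(TPM + 0.5) called 0, against 0% of all genes. The remaining member, Cacna2d4, was below the level tested. Fitted changes were positive for 5 members and negative for 2, with a median log2 fold change of 0.05, against a median of −0.0018 over all genes tested. Normalised CPM (read counts scaled to library size and composition) did not overlap between groups for 3 of the 7 members, 1 higher and 2 lower in siCLAP. Over all genes tested the share without overlap was 21.5%, with 10.9% higher and 10.7% lower in siCLAP.

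Cacna2d2 encodes an α2δ subunit of central and sensory neurons, and its loss in ducky mice causes ataxia and seizures. It was the member with the largest difference relative to its error. Levels in libraries 1 to 3 were 26.98, 28.35 and 31.57 TPM in siCLAP, against 35.98, 34.06 and 34.18 TPM in siNC. Values of single libraries are given in the order 1, 2, 3 throughout. All 3 siCLAP libraries lay below all 3 siNC libraries, and siCLAP-3 lay closest to them. The fitted log2 fold change was −0.25 ± 0.06 (SE), or 0.842 of the siNC level with a 2-SE range of 0.776 to 0.914, and it did not pass edgeR's test (adjusted p = 0.0885, unadjusted p = 0.00155). Of all genes tested 1.74% had a smaller p.

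Whether Cacna2d2 counts as changed depended on the test and on single libraries. It passed with DESeq2 (adjusted p = 0.0130), in edgeR's test with no filter on low values (0.0103) and in edgeR's test without siCLAP-3 (log2 fold change −0.31, adjusted p = 0.0262). Over all 17 alternatives the estimate ran from −0.31 to −0.20 and the adjusted p from 0.0103 to 0.421. The leptomeningeal and nerve injury lists above also separated the groups. Of the sensory neuron markers, Scn10a and Mrgprd fell and Pvalb rose in edgeR's test, and the others did not pass. The part of any of these in the Cacna2d2 difference was not tested.

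**Figure D2:**
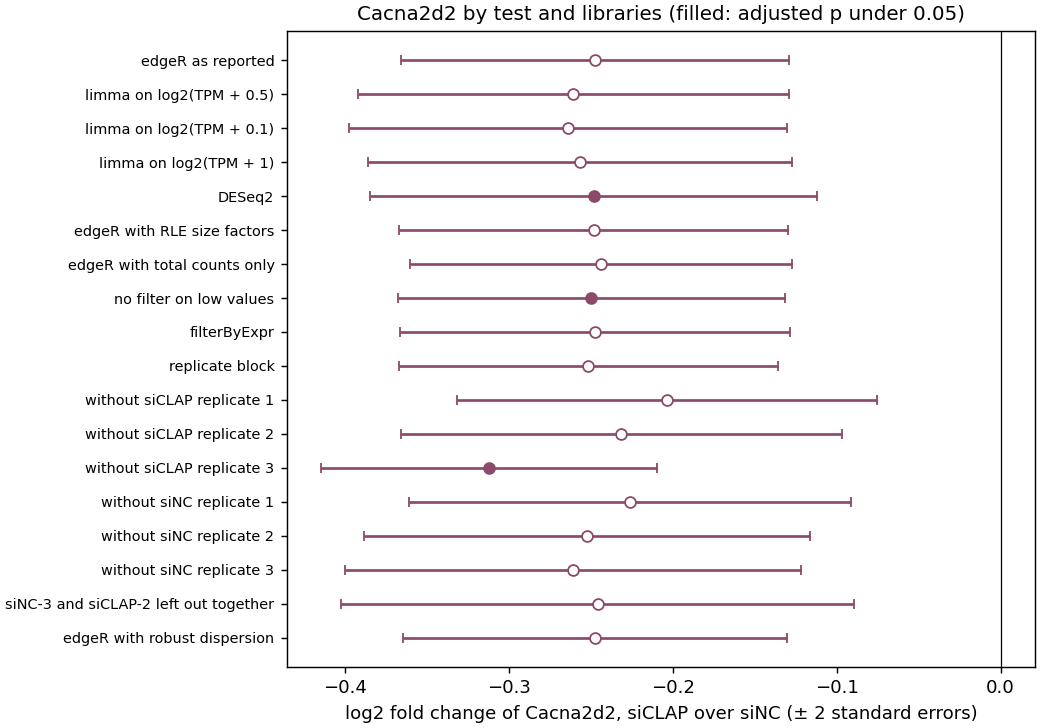
Fitted log2 fold change of Cacna2d2 (siCLAP over siNC, horizontal axis) with 2 standard errors on each side, for edgeR as reported and 17 alternatives (rows); filled points have an adjusted p under 0.05. All estimates lie below 0, between −0.31 and −0.20, and 3 of the 17 alternatives are filled.

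Cacna2d1, which like Cacna2d2 carries the full arginine triplet, stood slightly higher in siCLAP without passing. It was at 110.8, 113.9 and 105.5 TPM in the siCLAP libraries, against 106.5, 102.9 and 98.97 TPM in the siNC libraries. In TPM the groups overlapped, since siCLAP-3 lay below siNC-1, and in normalised CPM they did not (303.2 to 326.8 CPM in siCLAP, 280.4 to 299.9 CPM in siNC). The fitted log2 fold change was 0.11 ± 0.05 (adjusted p = 0.244 in edgeR's test, unadjusted p = 0.0301), with a 2-SE range of 1.02 to 1.15 times the siNC level. With siNC-3 and siCLAP-2 both left out the estimate was 0.06. The nerve injury genes given above also stood higher in siCLAP as a sum, without overlap, and their part in the Cacna2d1 difference was not tested. That sum is mostly Gap43 (mean 408.4 TPM over the 6 libraries) and Jun (109.6 TPM). Their log2 fold changes were 0.08 and 0.06 (adjusted p = 0.353 and 0.777 in edgeR's test). Over the 9 nerve injury genes tested the median was 0.36, with 8 estimates positive and 1 gene, Atf3, passing.

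Cacna2d3, an α2δ subunit linked in flies and mice to the response to noxious heat, was at 49.6, 47.0 and 49.0 TPM in siCLAP and 48.2, 44.9 and 43.7 TPM in siNC. The groups overlapped, because siNC-1 lay above siCLAP-2. Its log2 fold change was 0.10 ± 0.05 (adjusted p = 0.325 in edgeR's test). Cacna2d4, an α2δ subunit of photoreceptors, had expected counts of 4, 3 and 8 in the siCLAP libraries and 0, 5 and 2 in the siNC libraries. At these counts, close to the limit of 3 that a count of 0 allows, no difference was detectable, and no fold is given.

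Within the α2δ family the shares of Cacna2d2 and Cacna2d1 did not overlap between the groups, while the summed level did. The shares were not tested, and neither gene passed edgeR's test. Over all genes tested, 21.5% did not overlap between the groups in normalised CPM. No such rate was taken for family shares. Shares within a family are not separate observations, since a lower share of a member raises those of the rest. Summed α2δ levels were 187.4, 189.3 and 186.1 TPM in siCLAP, against 190.6, 181.9 and 176.9 TPM in siNC. Cacna2d2 made up 15.4% ± 1.35 of the family in siCLAP and 19.0% ± 0.314 in siNC (SD, n = 3 libraries each), and the groups did not overlap. Cacna2d1 made up 58.7% ± 1.81 in siCLAP and 56.1% ± 0.371 in siNC, again without overlap, although siCLAP-3 at 56.7% lay close to siNC-2 at 56.5%. Cacna2d3 took 25.9% ± 0.909 in siCLAP and 24.9% ± 0.329 in siNC, with overlap. Within each library Cacna2d1 exceeded Cacna2d2 by 4.11, 4.02 and 3.34 times in siCLAP and by 2.96, 3.02 and 2.90 times in siNC.

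The pair whose sequence carries the full arginine triplet, Cacna2d1 with Cacna2d2, summed to 137.8, 142.3 and 137.0 TPM in the siCLAP libraries. In the siNC libraries the pair summed to 142.5, 136.9 and 133.2 TPM. The means were 139.0 ± 2.85 TPM in siCLAP and 137.5 ± 4.69 TPM in siNC (SD, n = 3), so the groups overlapped and the difference of the means was smaller than either SD.

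**Figure D3:**
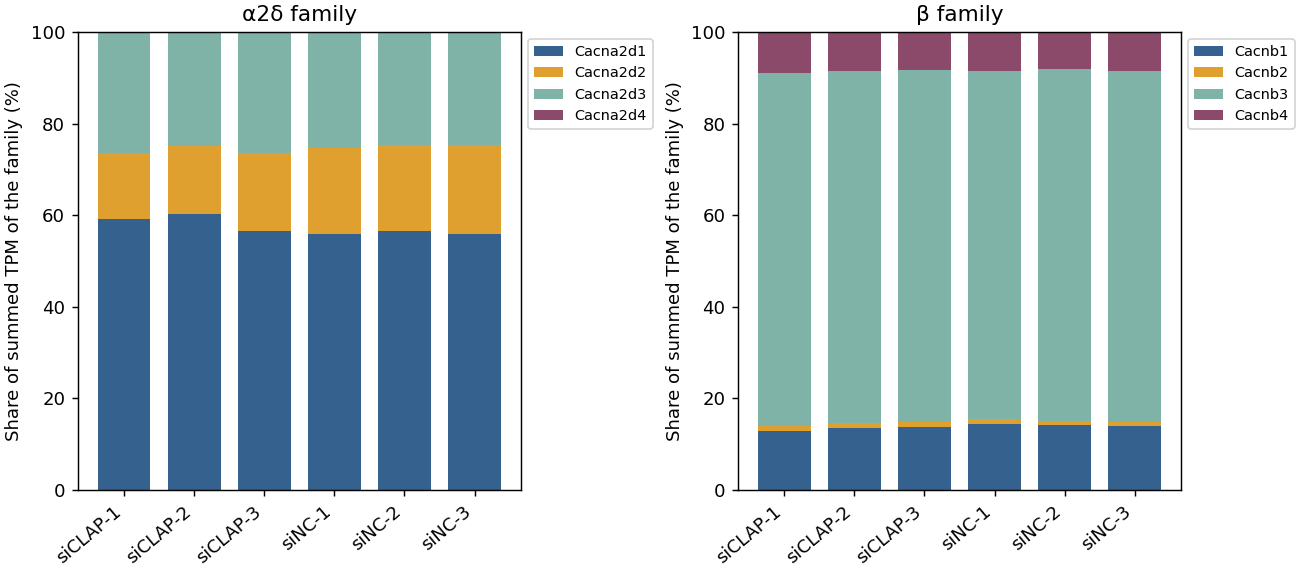
Share of each member in the summed TPM of its family (vertical axis, %) in every library, siCLAP libraries first, for the α2δ family (left panel) and the β family (right panel). The Cacna2d2 band covers 14.4% to 17.0% in siCLAP and 18.7% to 19.3% in siNC, and Cacnb3 covers 76.1% to 77.0% of the β family in all 6 libraries.

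In the β family, Cacnb3, a β subunit of neuronal N-type channels, was nearly flat. It was at 325.7, 329.2 and 318.1 TPM in siCLAP and 329.7, 322.9 and 329.2 TPM in siNC. The groups overlapped. The log2 fold change was 0.00 ± 0.04 (adjusted p = 0.977 in edgeR's test), with a 2-SE range of 0.950 to 1.06 times the siNC level. Its sign turned in 6 of 17 alternatives, at −0.013 or closer to 0.

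Cacnb1, known as the β subunit of the skeletal muscle channel and also expressed in neurons, was the lower β member in siCLAP. Levels were 54.3, 57.8 and 56.9 TPM in siCLAP, against 62.2, 59.0 and 60.1 TPM in siNC, with no overlap. Its share of the β family was 13.4% ± 0.466 in siCLAP and 14.1% ± 0.198 in siNC (SD, n = 3 libraries each), also without overlap and not tested. The log2 fold change was −0.09 ± 0.04 and did not pass (adjusted p = 0.355 in edgeR's test). The pore subunit of the skeletal muscle channel, Cacna1s, averaged 0.145 TPM in siCLAP and 0.133 TPM in siNC, and the 7 skeletal muscle markers summed to 2.81 to 7.54 TPM in siCLAP and 3.16 to 4.41 TPM in siNC, with siCLAP-1 highest.

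Cacnb4, the β subunit disrupted in the ataxic and epileptic lethargic mouse, was at 37.8, 36.4 and 34.4 TPM in siCLAP and 36.2, 33.7 and 36.5 TPM in siNC. Its log2 fold change was 0.05 ± 0.05 (adjusted p = 0.662 in edgeR's test), and it was 0.08 without siCLAP-3, 0.0078 without siCLAP-1 and 0.02 without siNC-2. The groups overlapped. Cacnb2, the main β subunit of the cardiac L-type channel, was low at 5.04, 4.11 and 4.71 TPM in siCLAP and 5.07, 3.74 and 4.02 TPM in siNC, again with overlap. It had the widest error of the members tested, with a log2 fold change of 0.13 ± 0.13 (adjusted p = 0.643) and a 2-SE range of 0.912 to 1.32 times the siNC level. Its estimate was 0.27 without siNC-1, 0.21 without siCLAP-2, 0.05 without siCLAP-1 and 0.04 without siNC-2. It had 129 to 300 reads a library. The summed β level was 414.1 to 427.5 TPM in siCLAP and 419.3 to 433.2 TPM in siNC.

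The library kit named in the labels does not mark strand, so reads of a member and of a gene on the opposite strand of the same exon cannot be told apart. GENCODE M21 places other genes over 16.0% of the exon bases of Cacnb4 (A430018G15Rik), 7.32% of those of Cacnb2, 1.77% of those of Cacnb1 and 1.03% of those of Cacna2d2 (Gm17141), and over 0 exon bases of the remaining 4. None of the overlapping genes lies on the member's own strand. Genomic spans run from 13.7 kb for Cacnb3 to 816.9 kb for Cacna2d3, both protein-coding, and Cacna2d2 spans 129.7 kb against 439.8 kb for Cacna2d1.

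The partners of the auxiliary subunits are given for context. The α1 list holds all α1 genes, also those of low-voltage-activated (T-type) channels. Of the α1 genes tested, Cacna1h and Cacna1i are T-type and so outside the high-voltage-activated channels described at the start. Of 10 pore-forming α1 genes 7 were tested and 0 passed edgeR's test, 6 of them with an unadjusted p under 0.05, against 17.0% of all genes, and DESeq2 called 3 (Cacna1c, Cacna1e and Cacna1h), against 3.19% of all genes. All 7 estimates were negative under TMM, RLE and total-count scaling (median −0.21). The most abundant were Cacna1b, of N-type channels, at 64.8 TPM in siCLAP and 72.1 TPM in siNC (−0.14 ± 0.05), and Cacna1a, of P/Q-type channels, at 58.9 TPM in siCLAP and 62.4 TPM in siNC (−0.07 ± 0.05). Summed α1 levels, T-type genes included, were 186.2 to 208.1 TPM in siCLAP and 213.7 to 223.9 TPM in siNC, without overlap. The summed α2δ and the summed β levels each overlapped between the groups. A test that these sums differ in their response was not made.

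**Figure D4:**
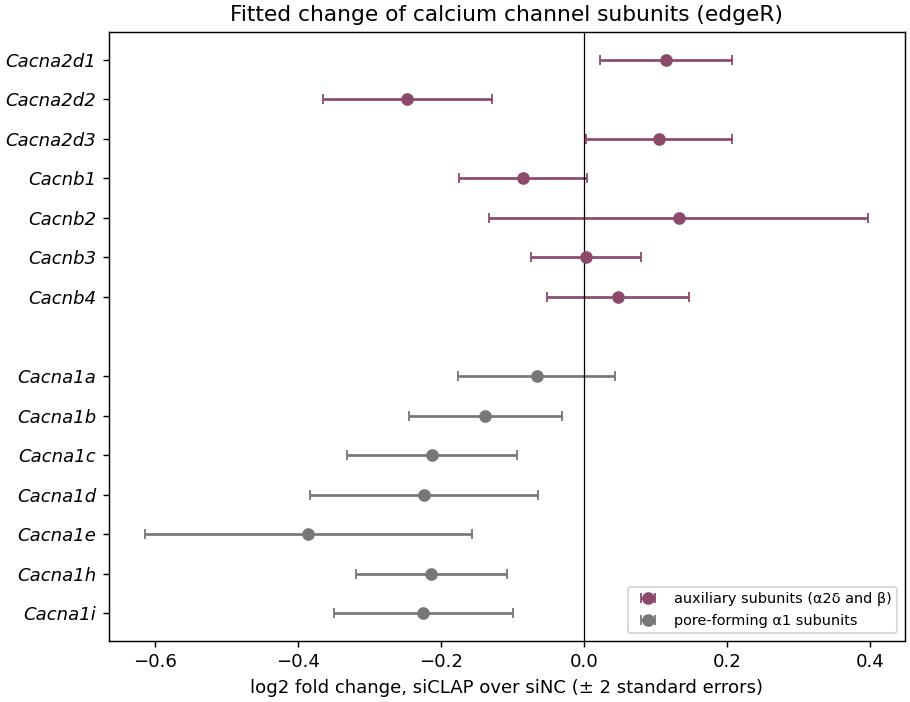
Fitted log2 fold change (siCLAP over siNC, horizontal axis) with 2 standard errors on each side for the 7 auxiliary subunit genes tested (upper rows) and the 7 α1 genes tested (lower rows), from edgeR's fit over all genes. Auxiliary estimates lie on both sides of 0, from −0.25 for Cacna2d2 to 0.13 for Cacnb2, α1 estimates lie between −0.39 and −0.07, and 0 of the 14 genes shown passed after adjustment. The α1 rows include Cacna1h and Cacna1i, of low-voltage-activated channels.

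For comparison with the lists that follow, 0.293% of all genes tested passed edgeR's test. An unadjusted p under 0.05 was reached by 17.0% of all genes, and DESeq2 called 3.19%. Among γ subunit genes and the α2δ-like gene Cachd1, 7 of 9 were tested and 0 passed edgeR's test (1 with an unadjusted p under 0.05, 0 with DESeq2, median −0.06). The most abundant were Cacng7, which encodes an AMPA receptor regulatory protein, at 144.7 TPM in siCLAP and 145.1 TPM in siNC (0.01 ± 0.07), and Cachd1 at 22.5 TPM in siCLAP and 25.6 TPM in siNC (−0.17 ± 0.07). Among RGK GTPases, which bind β subunits and inhibit channels, STAC adaptors and RIM-related proteins, 8 of 10 were tested and 0 passed edgeR's test (2 with an unadjusted p under 0.05, median 0.0021). DESeq2 called 1 of them, the RGK GTPase Rem2, at 24.1 TPM in siCLAP and 19.1 TPM in siNC. Stac and Stac2 were the most abundant, at 77.4 and 64.1 TPM in siCLAP and 85.8 and 65.4 TPM in siNC. Of 7 further partners of α2δ, which include thrombospondins and the membrane proteins Lrp1 and Grin1, 0 passed edgeR's test (2 with an unadjusted p under 0.05, median −0.14). DESeq2 called 1 of them, Lrp1. Grin1, the obligatory NMDA receptor subunit, was at 72.3 TPM in siCLAP and 72.0 TPM in siNC, and Lrp1, a receptor known to promote α2δ trafficking, was at 27.4 TPM in siCLAP and 33.0 TPM in siNC (log2 fold change −0.25 ± 0.06, adjusted p = 0.0951 in edgeR's test).

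The genes whose profile over the 6 libraries lay closest to that of Cacna2d1 were Rnf149, Ncl and Nat9, with root mean square differences of 0.00956, 0.0133 and 0.0141 in centred log2 CPM, against a median of 0.112 over 13814 genes compared. For Cacnb3 they were Ncstn, Nemf and Bri3bp, at 0.00346, 0.0112 and 0.0113, against a median of 0.0919. For both members the genes were picked for the smallest differences, so their place below the median was fixed in advance. Whether they vary together beyond these 6 libraries was not tested. The profile of Cacnb3 was itself almost level, with an SD of 0.0161 over the 6 libraries, so any steady gene lies close to it.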

How the data were processed

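RNA-seq files of 6 libraries were used. The submitters' processing notes name the mm10 build, featureCounts 1.6.2, HISAT2 2.1.0 and FastQC 0.11.8. The annotation, strand setting and handling of multi-gene reads were not given in the sources used here. Deposited by the authors, the TPM values sum to the same total in each library. The authors' deposited expected counts are not all whole (66.5% whole within 1e-06) and were rounded to whole numbers. Groups and replicate numbers came from the sample titles.

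Genes with a mean of at least 1 TPM were tested with edgeR 4.0.16 (R 4.3.3), a quasi-likelihood test with TMM scaling, no covariate, all 6 libraries and Benjamini-Hochberg adjustment over all genes, two-sided. Standard errors were the log2 fold change divided by the square root of F. With 3 libraries against 3 an exact permutation test cannot give a p below 0.1, so none was run. Shares and sums are descriptions. Levels of different genes were compared in TPM. As alternatives, the order of the members was also taken from expected counts per exon length, and family shares from expected counts. Depth sets a floor of 3 counts, or 0.0652 to 0.140 CPM by library, which covers counting error only. DESeq2 1.42.0, limma 3.58.1, other scalings and filters, a replicate block and left-out libraries were alternatives. Members, gene lists and the naming rule (all 8 members, and the 2 most abundant genes of each partner list) were chosen with earlier results of these data known. Rnf149 and the other closest genes followed its likeness part. Genes called by DESeq2 alone, and Gap43 and Jun, were named after their values were seen. Gm17141 and A430018G15Rik came from the overlap search.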

Additional observations from a re-analysis of the deposited data

How the results depend on the processing

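No member passed in 14 of 17 alternatives. The count of members called was 1 with DESeq2, 1 with no filter on low values, and 0 to 1 when single libraries were left out. Over all genes 56 passed in edgeR's test. The count was 0 with limma at each pseudocount (0.5, 0.1 and 1; 3028, 3017 and 3040 genes at an unadjusted p under 0.05), 611 with DESeq2, 835 with no filter, 133 with robust dispersion (chosen after seeing the data), 13 with siNC-3 and siCLAP-2 left out together, and 0 to 340 with single libraries left out, the lowest without siCLAP-1 and the highest without siCLAP-3. The cause was not tested.

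Replicate numbers are shared by the groups, but nothing in the labels pairs the libraries. Over 19141 genes the deviations of same-numbered libraries from their group means correlated at 0.0384, −0.00243 and −0.0305. A correlation over all genes cannot show whether a pairing touches some of them, so pairing was not settled. With the replicate block 203 genes and 0 members passed, and Cacna2d2 stood at −0.25 (adjusted p = 0.0721). Only siCLAP-1 correlated best with its own number.

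The sign of Cacna2d1, Cacna2d2, Cacna2d3, Cacnb1, Cacnb2 and Cacnb4 held in all 17 alternatives. Cacnb3 ranged from −0.00651 to 0.0187 with single libraries left out; it turned to −0.0131 with limma at each of the 3 pseudocounts, and to −0.00651 without siCLAP-1, −0.00545 without siCLAP-2 and −0.00551 without siNC-3 and siCLAP-2. The difference in the Cacnb4 share was 0.638 points by expected counts and 0.291 points by TPM. Over single libraries left out Cacnb2 ran from 0.04 to 0.27 and Cacnb4 from 0.0078 to 0.08. Depth limits Cacna2d4.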
